A study of Rattus norvegicus with 30 samples.

Results

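The CCN family of matricellular proteins was followed in the rat testis through the probe sets of 5 genes, Ccn1 (older name Cyr61), Ccn2 (Ctgf), Ccn3 (Nov), Ccn4 (Wisp1) and Ccn5 (Wisp2). The members are all probe sets, other than array controls, whose platform annotation gives exactly 1 gene symbol equal to one of these names. This gave 5 probe sets, 1 per gene, of 31099 on the array, or 5 of 14217 genes named by a single symbol. The family was selected on measured values of these same arrays, namely the differences between treated and control animals, with the large values of Ccn1 and Ccn2 already known. Those differences are therefore given here as a description. The fit also yields calls for them, which are counted beside the share of all probe sets called and support nothing. The remaining family member, Ccn6 (Wisp3), lies outside that selection and is given beside it.

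The animals were male Fischer rats at postnatal day 28, an age at which meiosis is under way and the tubules hold few late germ cells. The rats received by oral gavage either a single dose of 1 g/kg mono-(2-ethylhexyl) phthalate (MEHP) in corn oil or, as controls, corn oil alone, and the testes were taken 1, 2, 3, 6 or 12 h later. MEHP is the active metabolite of a phthalate plasticizer that harms the immature testis mainly through its Sertoli cells. The 30 arrays came from 30 separate animals, 3 for each treatment and time, and that small number limits the precision. The labels enter the 1 g/kg dose for corn oil animals as well, although their treatment field names corn oil. The sample code of 1 corn oil animal of the 2 h group, number 7, begins as the codes of MEHP animals do, while its title and treatment name corn oil. Its Ccn1 signal of 63.5 and Ccn2 signal of 346.8 were the lowest of the 3 corn oil animals of that time. These signals entered the differences that chose the family, and the treatment of this animal was not tested.

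CCN proteins are secreted into the matrix around a cell, where they act less as scaffold than as signals. They are built from modules that resemble an insulin-like growth factor binding protein, a von Willebrand factor type C repeat, a thrombospondin type 1 repeat and a cystine knot, and Ccn5 lacks the cystine knot. Through these modules they bind integrins, heparan sulfate proteoglycans and growth factors. Ccn1 and Ccn2 are immediate early genes, and both are textbook targets of the coactivators YAP and TAZ on TEAD factors, which the Hippo pathway restrains, of SRF with its actin-sensing coactivators, and of TGF-beta.

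The promoters of Ccn1 and Ccn2 are shown because TEAD motifs in them are the best known route by which YAP acts on these genes. The 250 bases before the RefSeq start site of each gene on build GRCr8 were read for both strands of the TEAD core GGAATG. Both genes lie on the minus strand, Ccn1 with its window at chr2:237225690-237225939 and Ccn2 at chr1:22624615-22624864. The capitals mark matches to the TEAD core, of which CATTCC is the opposite strand.
Ccn1: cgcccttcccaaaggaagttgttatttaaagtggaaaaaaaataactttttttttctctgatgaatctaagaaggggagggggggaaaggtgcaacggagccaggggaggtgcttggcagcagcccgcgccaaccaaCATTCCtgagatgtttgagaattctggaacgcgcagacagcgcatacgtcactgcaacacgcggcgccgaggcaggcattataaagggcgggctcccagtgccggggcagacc
Ccn2: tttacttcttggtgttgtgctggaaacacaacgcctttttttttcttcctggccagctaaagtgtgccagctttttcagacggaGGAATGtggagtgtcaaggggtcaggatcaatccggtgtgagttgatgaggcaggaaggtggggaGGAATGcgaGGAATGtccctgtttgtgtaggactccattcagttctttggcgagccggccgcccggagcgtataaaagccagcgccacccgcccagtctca
Ccn1 held 1 match, 113 bases before the start site. Ccn2 held 3 matches on its own strand, 166, 101 and 92 bases before the start site, the last pair separated by a few bases. Among 33469 rat promoter windows of the same length, 12.1% held at least 1 match, 0.902% at least 2, and 27 windows (0.0807%) at least 3. The Ccn6 window held 0. Of 13 windows found for a list of 20 other YAP and TEAD targets, 3 held a match (23.1%).

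The same windows were read for further motifs of stimulus-responsive promoters. The SMAD motif CAGAC, bound by the factors that relay TGF-beta, occurred 2 times in Ccn1, 80 and 6 bases before the start site, and 1 time in Ccn2, 174 bases before it. The Ccn6 window held 2 matches as well, 183 and 102 bases before its start site. It is a common short motif, present in 42.9% of all windows. The AP-1 motif TGANTCA (6.34% of windows), the CRE motif TGACGTCA (1.59%), the EGR motif GCGTGGGCG (0.478%) and the CArG box of SRF (1.50%) had no match in the Ccn1, Ccn2 or Ccn6 window. A match describes letters in a window, and none of these arrays measured binding there.

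Of the 5 probe sets, 3 passed the filter on low signals, which asked for at least 3 arrays at or above the 40th percentile of the array (66.7 to 93.6). Ccn2 and Ccn3 reached it on all 30 arrays. Ccn1 reached it on 17 arrays, 15 of 15 after MEHP and 2 of 15 after corn oil, so it passed through the treated animals. Ccn4, Ccn5 and Ccn6 reached it on 0 arrays. Differences below compare the MEHP with the corn oil animals of a time, as log2(signal + 16) of the former minus the latter, with a standard error from 1 limma model of all arrays. The added 16 understates folds of low signals such as those of Ccn1 after corn oil. Signal levels of different probe sets are not set against each other.

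Ccn1, a heparin-binding ligand of integrins made by many cells soon after a stimulus, was higher after MEHP at every time, and its difference was larger at each later time. At 1 h the corn oil animals had signals of 72.2, 70.7 and 64.5 and the MEHP animals 90.9, 85.3 and 106.7. At 2 h the corn oil signals were 69.1, 98.6 and 63.5 against 394.2, 265.9 and 397.3 after MEHP. All MEHP animals lay above all corn oil animals at 1 h by a small margin, and limma did not call that difference (adjusted p = 0.941). The margin was wider at 2 h. At 3 h the signals were 82.4, 68.1 and 71.8 after corn oil and 449.4, 266.7 and 374.8 after MEHP. At 6 h they were 71.9, 51.2 and 54.8 against 313.4, 548.2 and 519.0. At 12 h they were 59.0, 54.6 and 62.4 against 777.4, 599.8 and 1160.1. At none of the 5 times did the groups overlap, and the 3 highest of all 30 Ccn1 signals were the 3 MEHP animals of 12 h. How many of all probe sets separate in this way is not given here.

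Expressed as group means, the Ccn1 signal at 1 h was 69.1 ± 4.13 (SD, n = 3) in control and 94.3 ± 11.1 in MEHP animals, and at 12 h 58.7 ± 3.93 against 846 ± 286. The log2 difference was 0.37, 1.98, 2.05, 2.63 and 3.48 at the 5 times in order, each with a standard error of 0.23 (n = 3 against 3). These are folds of 1.29, 3.95, 4.14, 6.19 and 11.1 on the log2(signal + 16) scale. Ratios of mean signals, which carry no added constant, were larger, 1.36, 4.57, 4.91, 7.76 and 14.4. Between successive times the difference moved by 1.61 from 1 to 2 h, 0.07 from 2 to 3 h, 0.58 from 3 to 6 h and 0.85 from 6 to 12 h (standard error of each 0.32). In the order of the MEHP levels, the neighbours 2 and 3 h overlapped, as did 3 and 6 h, whereas 1 and 2 h, and 6 and 12 h, did not.

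Ccn2, which binds TGF-beta and is best known for its part in wound repair and fibrosis, was higher after MEHP from 2 h on. At 1 h the corn oil animals had signals of 460.8, 441.9 and 721.4 and the MEHP animals 475.2, 458.2 and 603.0. At 2 h they were 458.3, 376.6 and 346.8 against 715.9, 657.2 and 739.6. The groups overlapped at 1 h, and at 2 h all MEHP animals lay above all corn oil animals of that time, though the corn oil animal of 1 h at 721.4 lay among them. At 3 h the corn oil signals were 401.4, 546.3 and 448.7 and the MEHP signals 3003.1, 1471.0 and 1556.3. At 6 h they were 523.4, 361.5 and 382.0 against 2464.3, 2885.3 and 1840.8. At 12 h they were 318.0, 358.1 and 395.2 against 1910.0, 3132.5 and 3091.8. From 3 h on, the lowest MEHP signal was above the highest of all 15 corn oil signals.

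The mean Ccn2 signal at 1 h was 541 ± 156 (SD, n = 3) in control and 512 ± 79.2 in MEHP animals, and at 12 h 357 ± 38.6 against 2711 ± 694. The log2 difference was -0.05, 0.82, 2.01, 2.46 and 2.84 at the 5 times in order (standard error of each 0.24), or folds of 0.964, 1.77, 4.01, 5.48 and 7.16. It moved by 0.87 from 1 to 2 h, 1.18 from 2 to 3 h, 0.45 from 3 to 6 h and 0.38 from 6 to 12 h (standard error of each 0.34). In the order of the MEHP levels, 1 and 2 h did not overlap, nor did 2 and 3 h, whereas 3 and 6 h did, as did 6 and 12 h. Set side by side, the Ccn1 difference had its largest step from 1 to 2 h and the Ccn2 difference from 2 to 3 h. Whether these genes differ in timing was not tested. Set against the corn oil animals of 1 h in place of those of 2 h, the 2 h difference was 2.09 for Ccn1 and 0.40 for Ccn2.

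**Figure D1:**
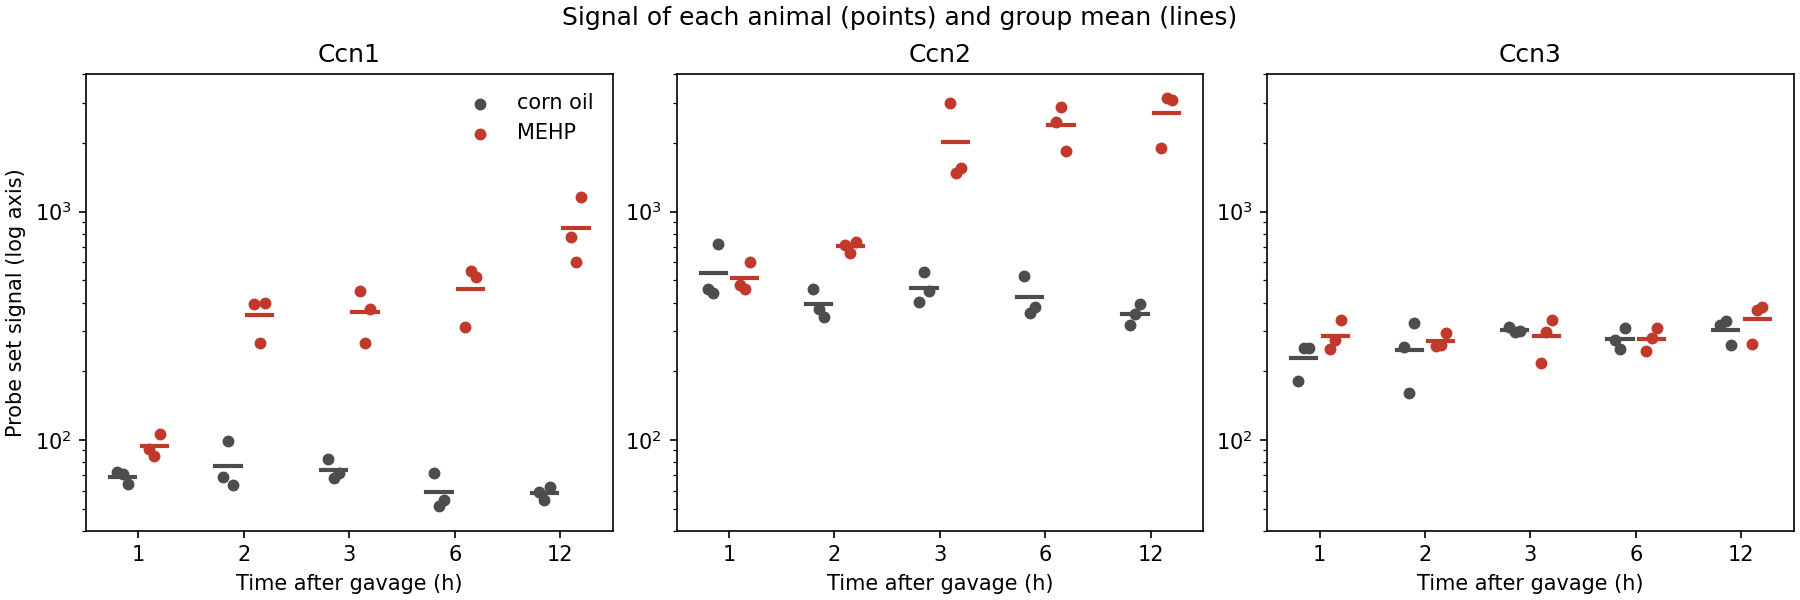
Signals of Ccn1, Ccn2 and Ccn3 for each of 30 animals on a log axis, by hours after gavage, the times drawn at even spacing; points are animals and horizontal bars the means of the 3 animals of a group, after corn oil or MEHP. Ccn1 after MEHP runs from 85.3 at 1 h to 1160.1 at 12 h, Ccn2 after MEHP lies at 1471.0 or more from 3 h on, and the Ccn3 groups overlap at all 5 times.

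Ccn3, a member often described as opposing Ccn2 and as restraining growth, had overlapping groups at all 5 times. At 1 h the corn oil animals had signals of 181.0, 251.9 and 252.5 and the MEHP animals 250.5, 273.3 and 335.5. At 2 h the signals were 254.7, 161.2 and 326.3 against 258.8, 260.0 and 295.4 after MEHP, and animals of both treatments were interleaved from then on. At 3 h they were 313.0, 298.6 and 301.6 against 217.5, 298.3 and 336.9. At 6 h they were 273.4, 250.3 and 309.8 against 244.6, 280.0 and 308.1. At 12 h the corn oil signals of 318.2, 330.8 and 261.0 lay within or just below the MEHP signals of 262.8, 372.2 and 381.9. Over all 30 arrays the signal ran from 161.2 to 381.9. The log2 differences were 0.31, 0.17, -0.11, 0.00 and 0.14 at 1, 2, 3, 6 and 12 h (standard error of each 0.20). Ccn3 was thus measured on every array, with no difference beyond 0.31 while the other 2 measured members reached 3.48 and 2.84.

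Ccn4, a WNT-induced member, and Ccn5, which acts on smooth muscle growth, gave signals too low to follow. The Ccn4 signal ran from 5.88 to 74.1 (median 34.8) and the Ccn5 signal from 1.50 to 72.2 (median 14.8). Fitted with no filter, their log2 differences lay between -0.60 and 0.74 for Ccn4 (standard error 0.52) and between -0.20 and 0.63 for Ccn5 (0.46). Their groups overlapped at all 5 times. The highest Ccn5 signal, 72.2, came from MEHP animal 57 of 12 h. Ccn6, with signals of 10.3 to 60.5, had log2 differences between 0.05 and 0.50 (standard error 0.26). Whether these 3 genes differed was not detectable at such signals.

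**Figure D2:**
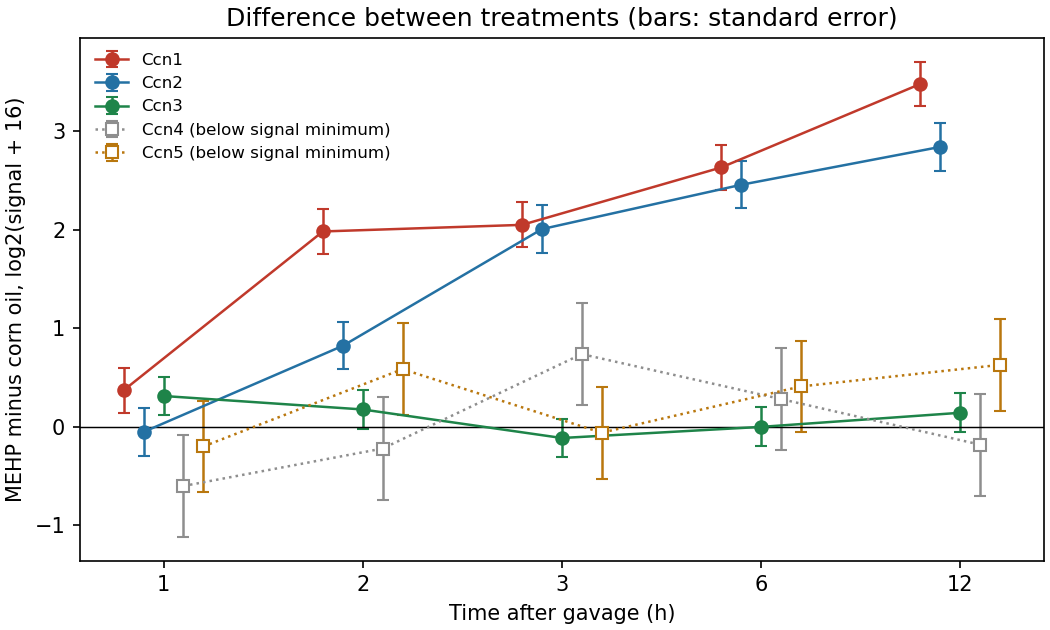
Log2 differences (MEHP minus corn oil, log2(signal + 16)) of the 5 genes at 1, 2, 3, 6 and 12 h, the times drawn at even spacing, with bars of 1 standard error and 3 animals a group. Ccn1 goes from 0.37 to 3.48 and Ccn2 from -0.05 to 2.84, while Ccn3 stays between -0.11 and 0.31; Ccn4 and Ccn5, below the filter on every array, carry wide bars.

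At an adjusted p of 0.05 over 21190 probe sets (limma, Benjamini-Hochberg), 0 of the 3 CCN probe sets were called higher at 1 h, Ccn1 alone at 2 h, and 2 (Ccn1 and Ccn2) at each later time. None of the 3 was called lower at any time. Of all probe sets tested, the shares called higher at 1, 2, 3, 6 and 12 h were 0%, 0.222%, 0.0425%, 0.179% and 5.06%. The shares called lower were 0%, 0.439%, 0%, 0.0236% and 3.68%. At 1 h, 518 probe sets had an unadjusted p under 0.05, and 0 of the 3 CCN probe sets did. Since these contrasts chose the family, nothing is read from its counts. In the 6 arrays of 1 time alone, 0 CCN probe sets were called at 2 h and 0 at 3 h.

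Differences between times among the corn oil animals were not what chose the family, although the same corn oil signals entered the differences that did. They were tested for Ccn1, Ccn2 and Ccn3, with the limit that 2 of the 15 Ccn1 signals reached the filter on low signals. Time after gavage cannot be told apart here from the time of day, since the 12 h animals were dosed early in the morning, the 6 h animals in the mid-morning and the others in the early afternoon, nor from processing. Over 15 corn oil animals Ccn1 ran from 51.2 to 98.6 (median 68.1), with group means between 58.7 at 12 h and 77.1 at 2 h. Ccn2 ran from 318.0 to 721.4 (median 401.4), with group means between 357 at 12 h and 541 at 1 h. Ccn3 ran from 161.2 to 330.8 (median 273.4), with group means between 228 at 1 h and 304 at 3 h. None of the 3 genes passed the test. The limma F test over the 5 times gave adjusted p values of 0.700 for Ccn1, 0.433 for Ccn2 and 0.380 for Ccn3. Of all probe sets, 0.033% passed it (7 of 21190), and 0 of the 3 CCN probe sets had an unadjusted p under 0.05. From 1 to 12 h the corn oil level of Ccn2 differed by -0.55 ± 0.24 (log2, SE, n = 3, limma adjusted p = 0.842). That was its largest difference from 1 h, beside a 12 h difference between treatments of 2.84.

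Ccn1 and Ccn2 were followed animal by animal. Across the 15 MEHP arrays their log2 signals correlated with r = 0.80, and across the 15 corn oil arrays with r = 0.21. The MEHP arrays share the passage of time, since both genes were low at 1 h and high at 12 h, so the 15 points are not independent. Within the 3 h MEHP group, animal 49 had the highest signal of both genes, 449.4 and 3003.1. At 12 h the animal with the lowest Ccn2 signal, 57 at 1910.0, held the middle Ccn1 signal, 777.4. Ccn3 had r = 0.28 with Ccn1 and 0.20 with Ccn2 across the MEHP arrays, and -0.56 and -0.18 across the corn oil arrays. Only 2 of the 15 Ccn1 signals after corn oil reached the filter, which limits the corn oil correlations of Ccn1.

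**Figure D3:**
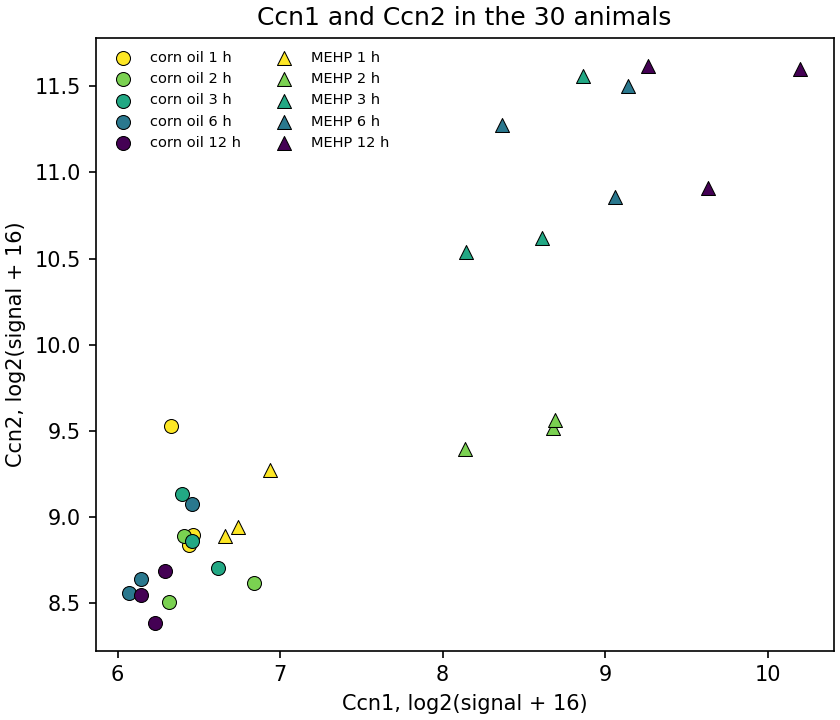
Ccn1 (horizontal) against Ccn2 (vertical), both as log2(signal + 16), 1 point per animal, with circles for corn oil, triangles for MEHP and colours for the 5 times. The 15 corn oil animals and the MEHP animals of 1 h lie together at low Ccn1, the MEHP animals of 2 h lie at high Ccn1 with Ccn2 signals of 657.2 to 739.6, and those of 3, 6 and 12 h have both genes high.

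The genes whose pattern was most like that of Ccn1 over all 30 arrays, by Pearson correlation of log2 signals among 11279 other genes, were Ier3 (r = 0.97), Cxcl1 (0.97), Dusp1 (0.93), Ppp1r15a (0.93), Rab20 (0.93) and Dusp5 (0.92). These include an immediate early gene, a neutrophil chemokine, a pair of MAP kinase phosphatases and a phosphatase subunit of the stress response. Ccn2 stood at rank 14 in the same order. For Ccn2 the most alike were Dusp1 (r = 0.92), Ccn1 (0.90), Cxcl1 (0.87), Zfp36 (0.87), Rin2 (0.86) and Nfkbiz (0.86). Dusp1 and Cxcl1 stood among the 6 of both. Within the 15 MEHP arrays r was 0.95 for Ccn1 with Ier3 and 0.86 for Ccn2 with Dusp1, while within the 15 corn oil arrays it was 0.54 and 0.58. Within the corn oil arrays r to Ccn1 was 0.64 for Ppp1r15a and 0.56 for Rab20. It was lower for others, such as Cxcl1 with 0.35 to Ccn1 and -0.15 to Ccn2, and Nfkbiz with -0.03 to Ccn2. These values describe arrays that share treatment and time, and carry no test.

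Companion genes were then read in 7 lists drawn up by role, 107 genes in all, each taken at whichever tested probe set had the highest mean signal. The lists were drawn up with earlier results of these data known, so their counts are descriptions. Companion genes passed the test mainly at 12 h. At 1, 3 and 6 h 0 companion genes were called by limma, although 5, 12 and 19 had an unadjusted limma p under 0.05. Most of these were higher at 3 h (11) and 6 h (16). Of all 21190 probe sets tested, 518, 2140 and 1096 had such a p at those times, so the 3 h count was near the share of all. At 2 h 2 companion genes were called higher, where 0.222% of all probe sets were. At 12 h 29 were called higher (27.1%) and 5 lower (4.67%), where 5.06% and 3.68% of all probe sets were. The counts per list below are to be read against those shares, which cover every tested probe set, not only the strongest of each gene. The median log2 difference of the companion genes was 0.16 at 12 h, against -0.04 over all probe sets tested. Below, a value with an adjusted p comes from that limma fit, with Benjamini-Hochberg adjustment over all 21190 probe sets and n = 3 against 3. The 12 h calls rest in part on MEHP animal 57, without which the count of 34 became 20, and in the 12 h arrays alone 12 were called.

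Among YAP and TEAD targets outside the CCN family, 1 of 18 was called at 2 h and 7 at 12 h. F3, tissue factor, rose at both times, at 2 h by 0.68 ± 0.11 (SE, adjusted p = 0.00509), from a signal of 388 ± 18.1 (SD) to 632.0 ± 39.5. With the spike level of each array as a covariate the adjusted p was 0.0568, against the corn oil animals of 1 h it was 0.104, and in the 2 h arrays alone 0.297. At 12 h the 7 that passed all rose (38.9% of the list), and the list median was 0.52. Myof, a membrane repair protein, rose by 2.14 ± 0.28 (adjusted p = 1.35e-05), from 59.3 ± 11.4 to 343 ± 188. Igfbp3, a carrier of insulin-like growth factors, rose by 1.54 ± 0.27 (adjusted p = 0.000342), though its other probe set gave 0.75 (adjusted p = 0.108). Fjx1 rose by 1.34 ± 0.26 (adjusted p = 0.00123) and Nt5e, the ectoenzyme CD73, by 0.93 ± 0.15 (adjusted p = 0.000169). The common YAP targets Axl (0.36), Amotl2 (0.64), Lats2 (0.08) and Crim1 (1.32 ± 0.49) did not pass. Ankrd1 and Foxf2 had no probe set tested.

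Of 16 measured components of the Hippo pathway itself, 2 rose (12.5%) and 1 fell (6.25%) at 12 h, with a median of 0.00. Tead1, a DNA-binding partner of YAP, rose by 1.15 ± 0.26 (adjusted p = 0.00428), from 555 ± 8.75 to 1395 ± 799, and its other probe set gave 1.12 (adjusted p = 0.0252). Without MEHP animal 57 its adjusted p was 0.0551. Ajuba, a LIM protein that restrains the LATS kinases, rose by 0.90 ± 0.16 (adjusted p = 0.000395). Stk4, the kinase MST1, fell by 0.48 ± 0.13 (adjusted p = 0.0135), but did not pass once corn oil animal 61 or MEHP animal 57 was left out, and its other probe set gave -1.28 (adjusted p = 0.311). The coactivator Wwtr1 (TAZ) gave 0.27 ± 0.23 and the scaffold Nf2 -0.01 ± 0.12. Yap1 had no probe set tested.

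SRF and MRTF targets of the actin cytoskeleton gave the largest count of the 7 lists, 10 of 17 higher (58.8%) and 0 lower at 12 h, with a median of 0.64. Tpm4, a tropomyosin, rose by 1.82 ± 0.26 (adjusted p = 4.02e-05) and Fhl2, a LIM cofactor, by 1.73 ± 0.21 (adjusted p = 3.77e-06). Tagln, an actin-binding protein of smooth muscle, rose by 1.49 ± 0.17 (adjusted p = 2.24e-06) and Acta2, smooth muscle actin, by 1.29 ± 0.17 (adjusted p = 1.02e-05), from 895 ± 15.0 to 2257 ± 528. Srf itself gave 0.16 ± 0.14 and its coactivator Mrtfa 0.16 ± 0.13, neither past the test. Acta2, Tagln and Cnn1 are also in the list of peritubular myoid markers. Of the 14 other SRF genes 7 rose, and whether their RNA came from myoid cells too was not tested. The myoid markers share those 3 genes with the SRF list, and 4 of 5 were called higher (Acta2, Tagln, Des and Cnn1). Myoid markers had a summed signal of 2755 to 2887 after corn oil and 4245 to 6039 after MEHP at 12 h. Their part in the result was not tested, and in whole testis RNA a change in the number of cells of a type and in the RNA per cell cannot be told apart.

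TGF-beta ligands, receptors and targets had few calls. At 2 h Smurf2, a ubiquitin ligase that curbs TGF-beta receptors, was called by 0.36 ± 0.08 (adjusted p = 0.0467), and that call was lost on leaving out any of 23 animals. At 12 h 2 of 23 rose (8.7%, near the 5.06% of all probe sets) and 0 fell, with a median of 0.07. Tgfb3, a ligand, rose by 0.92 ± 0.24 (adjusted p = 0.0152), and did not pass without animal 61 (corn oil) or 57 (MEHP). Id3, a target that blocks basic helix-loop-helix factors, rose by 0.77 ± 0.18 (adjusted p = 0.00712), lost without animal 57 (adjusted p = 0.0638). The ligands Tgfb1 (-0.20 ± 0.16) and Tgfb2 (0.60 ± 0.31), the receptor Tgfbr1 (-0.11 ± 0.11) and the relay Smad3 (0.12 ± 0.15) did not pass. The receptor Tgfbr2 had no probe set tested.

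Integrin subunits and other receptors that bind CCN proteins had 5 of 13 measured genes higher (38.5%) and 1 lower (7.69%) at 12 h, with a median of 0.43. Sdc4, the proteoglycan syndecan 4, rose by 2.31 ± 0.27 (adjusted p = 3.33e-06), from 1698 ± 36.6 to 9375 ± 5386, every MEHP animal above every corn oil animal. The integrin subunit Itga6, which with Itgb1 receives Ccn1 on fibroblasts, rose by 1.86 ± 0.29 (adjusted p = 0.000108), and its other probe sets gave 1.53 and 1.71. Itgb1 rose by 1.16 ± 0.20 (adjusted p = 0.000294), with 1.62 at its other probe set. Itga5, the fibronectin receptor subunit, rose by 0.99 ± 0.26 (adjusted p = 0.0168), lost without corn oil animal 62 or MEHP animal 57. Itgb5 fell by 0.92 ± 0.19 (adjusted p = 0.00174), from 611 ± 60.4 to 336 ± 136. Itgav, the partner of Itgb5, rose by 0.87 ± 0.19 (adjusted p = 0.00259).

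Growth factors and matrix partners bound by CCN proteins had 1 of 13 higher (7.69%, near the share of all probe sets) and 2 lower (15.4%) at 12 h, with a median of -0.05. Igf1 fell by 1.31 ± 0.39 (adjusted p = 0.0361). Both of its other probe sets were called lower as well, at -1.20 (adjusted p = 0.00275) and -0.95 (adjusted p = 0.0116). At the probe set of highest signal the Igf1 call was lost on leaving out any of the 3 corn oil animals, 57 or 58. Gja1, the gap junction protein connexin 43 of Sertoli and Leydig cells, fell by 0.74 ± 0.13 (adjusted p = 0.000271), from 4637 ± 382 to 2772 ± 348. Its other probe set gave -0.50 (adjusted p = 0.176). Vegfa, the endothelial growth factor, rose by 0.82 ± 0.24 (adjusted p = 0.0327), lost without any 1 of the 3 corn oil animals or MEHP animal 57, and its other probe set gave 0.54 (adjusted p = 0.292). Fn1, fibronectin, gave 0.87 ± 0.33 and did not pass.

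Among 11 measured matricellular proteins outside the CCN family, 2 rose (18.2%) and 1 fell (9.09%) at 12 h, with a median of -0.02. Spp1, osteopontin, rose by 1.37 ± 0.35 (adjusted p = 0.0133) and Efemp2, a fibulin, by 0.58 ± 0.17 (adjusted p = 0.0355). The Spp1 call was lost without corn oil animal 60 or 61, or MEHP animal 57 or 59. The Efemp2 call was lost without any of the 3 corn oil animals, or without 57 or 59, and its other probe set gave 0.64 (adjusted p = 0.0642). Postn, periostin, fell by 0.73 ± 0.16 (adjusted p = 0.0039), from 237 ± 47.0 to 136 ± 22.3. Sparc, the best known of these proteins, gave 0.19 ± 0.17. Thbs1, Thbs2 and Tnc had no probe set tested.

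**Figure D4:**
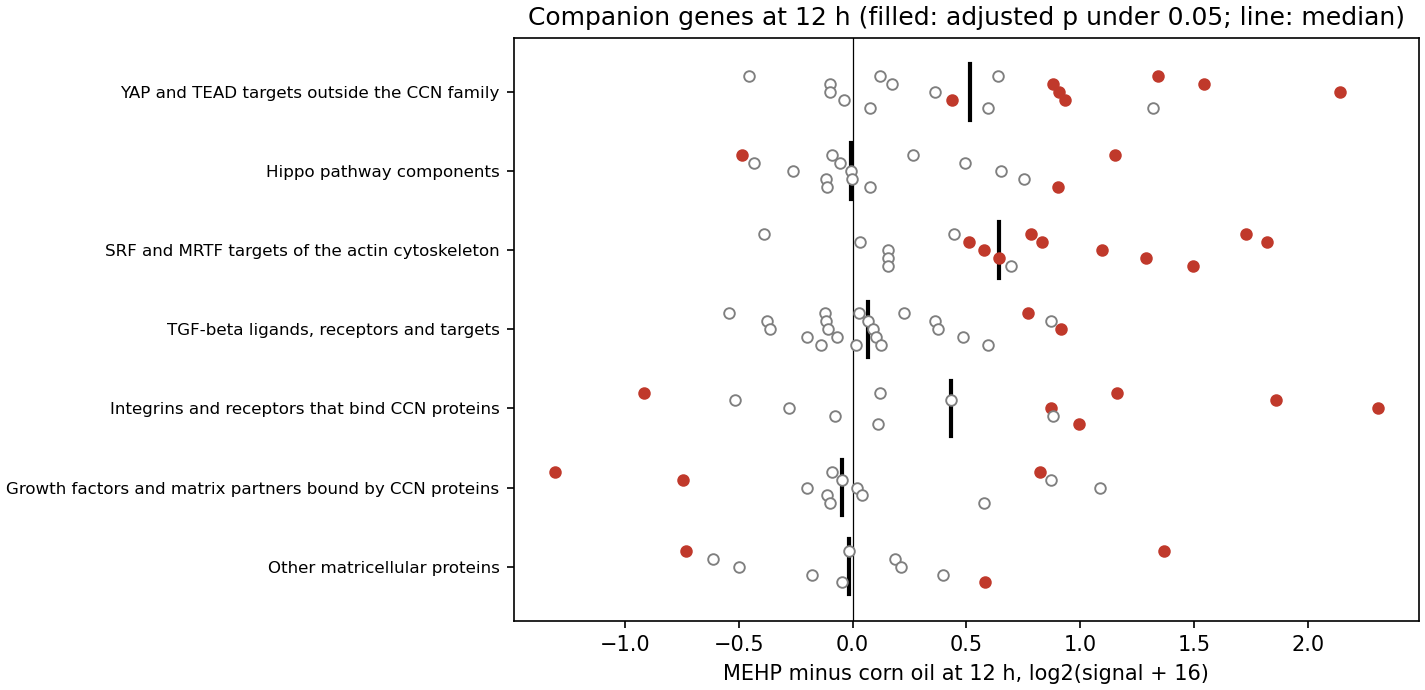
Log2 differences at 12 h (MEHP minus corn oil, log2(signal + 16)) of the companion genes, 1 row per list and 1 point per gene, filled where the adjusted p is under 0.05, with a black line at the list median. Genes of the SRF list lie mostly to the right of 0, 10 of 17 called higher, while the TGF-beta list centres near 0 with 2 of 23 called.

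The labelled tissue was checked against cell markers, of which 44 in 10 lists had a probe set tested. Leydig cell markers (6 of 6 tested), Sertoli cell markers (7 of 10), and spermatocyte markers (3 of 5) were measured. Of the 44, 0 were called at 1 h and 3 h, 1 lower at 2 h (the macrophage gene C1qb), 1 lower at 6 h (Star), and 9 higher and 5 lower at 12 h. The markers called at 12 h were 20.5% higher and 11.4% lower of the 44, beside 5.06% and 3.68% of all probe sets. At 1, 2, 3 and 6 h 0 markers were called higher by limma, and 0, 1, 2 and 4 had a higher value at an unadjusted p under 0.05. Of all 21190 probe sets tested, 518, 2973, 2140 and 1096 had such a p in either direction. Leydig markers summed to 14217 to 14577 after corn oil and 7215 to 10283 after MEHP at 6 h, without overlap. At 12 h Leydig markers summed to 12921 to 16467 after corn oil and 2892 to 8637 after MEHP, with 4 called lower and 1 higher. The neutrophil genes S100a8 and S100a9 summed to 15.8 to 30.6 and to 375 to 7358, both called higher, while Mpo and Elane had no probe set tested. After corn oil those sums lay below the filter on low signals (66.7 to 93.6) at every time but 2 h, when they reached 210. Their calls at 12 h, 2 of the 9 higher, thus rest on control signals below the filter. Fibroblast markers summed to 9335 to 14119 and 8077 to 10913, with 1 lower (Lum), and macrophage markers to 678 to 716 and 716 to 1143, with 0 called. Endothelial and Sertoli markers had 1 call each, Kdr and Ctsl, both higher. At 12 h Sertoli markers summed to 38679 to 41015 after corn oil and 43681 to 52347 after MEHP. Endothelial markers summed to 459 to 548 and 568 to 795, and neither pair overlapped. The Sertoli sums after MEHP lay below those after corn oil at 1 and 2 h, as did the endothelial sums at 6 h. The part of any of these cell types in the CCN values was not tested.

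Array measures differed between treatments at some times. The 2% trimmed mean was 500.1 to 500.2 on all 30 arrays and the median signal 117.2 to 165.4. At 2 h the 18 spiked bacterial controls averaged a log2 signal of 11.8 ± 0.489 (SD, n = 3) on the corn oil arrays and 11.0 ± 0.163 on the MEHP arrays. RNA integrity numbers ran from 8.2 to 10 over all animals with one given. At 2 h they were 8.2 to 8.3 after corn oil and 8.4 to 8.5 after MEHP, and at 12 h 9.5 to 9.8 and 9.2 to 9.3, without overlap at either time. Their part in the 2 h and 12 h values was not tested. With that spike signal added as a covariate, the 2 h differences were 2.01 ± 0.32 for Ccn1 and 0.90 ± 0.34 for Ccn2.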

How the data were processed

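Testis RNA (Trizol, then RNeasy columns, per the labels) of 30 rats was hybridised to 1-colour Affymetrix Rat230_2 arrays, 1 per animal, and nothing in the labels pairs the animals. The deposited value is a linear intensity per probe set, which the authors had scaled; the submitters' processing notes list GCOS 1.0. How probes were summarised and to what target is not given in the sources used here. No 2 arrays were identical.

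Of 31099 probe sets, 57 controls were left out, and the 21190 that reached the 40th percentile on at least 3 arrays were tested as log2(signal + 16). A limma 3.58.1 model (R 4.3.3) with a mean for each of 10 groups, moderated with a trend, gave differences and p-values, adjusted by Benjamini-Hochberg with a threshold of 0.05. The script was tested on simulated data. Symbols came from the platform annotation, and promoters from a RefSeq table of build GRCr8.

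The members, the 7 companion lists and the marker lists were chosen with earlier results of these data known. Companion genes named were, per list, time and direction, up to 4 with the largest called difference whose groups did not overlap, plus 6 genes most alike to Ccn1 and Ccn2 each. Other genes are named as background members of a list, chosen after their values were seen. Alternatives were pseudocounts of 1 and 64, no filter, quantile normalisation, median centring, no trend, arrays of 1 time alone, spike level or gavage volume as covariate, the 1 h controls for 2 h, Spearman correlation, and leaving out each animal.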

Additional observations from a re-analysis of the deposited data

Results flagged for a closer look

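For 4 named companion genes the difference between MEHP and corn oil itself differed between 6 and 12 h, by a limma test of that change with Benjamini-Hochberg adjustment over all probe sets tested. The log2 difference at 12 h minus that at 6 h was 1.15 for Acta2 (adjusted p = 0.0113) and 1.30 for Tagln (adjusted p = 0.00558). For Vegfa it was 1.57 (adjusted p = 0.0176), and for Gja1, the gap junction protein, it was -0.86 (adjusted p = 0.0127). Part of the Vegfa change lay at 6 h, where its difference was -0.74 ± 0.24 (SE, limma adjusted p = 0.469). Other probe sets of Vegfa and Gja1 gave smaller changes that did not pass, 0.84 for Vegfa (adjusted p = 0.433) and -0.34 for Gja1 (adjusted p = 0.813). These 4 genes had been named for large 12 h differences, and the share of all probe sets passing this test is not given here. Groups of 3 animals were too small for the check on outlying samples.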

How the results depend on the processing

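No difference of Ccn1 changed sign at any time, nor did one of Ccn2 from 2 h on, under any alternative tried or with any animal left out. Since these differences chose the family, their kept sign is a description and supports nothing. The Ccn1 difference at 12 h ran from 2.84 (pseudocount 64) to 3.78 (pseudocount 1) and that of Ccn2 from 2.69 to 2.89. CCN probe sets called numbered 0 at 2 h and 0 at 3 h with the arrays of that time alone, and 1 to 2 at 2 h with an animal left out, 2 without MEHP animal 49 of 3 h. Companion genes called at 2 h (2) numbered 1 with no filter, with median centring and with no trend, 0 with the arrays of that time alone, with the spike covariate and with the 1 h controls, and 1 to 2 with an animal left out. At 6 h (0) they numbered 2 with gavage volume as a covariate and 0 to 2 with an animal left out, 2 without MEHP animal 49 of 3 h. At 12 h (34) they numbered 12 with the arrays of that time alone and 20 to 40 with an animal left out, 20 without MEHP animal 57. The cause was not tested, except that 1 time alone has fewer samples. By Spearman correlation 1 of the 6 genes most alike to Ccn1 and 4 of those to Ccn2 stayed. Over all probe sets the calls were 1 to 211 at 2 h (140), 1 to 9 at 3 h (9), 10 to 62 at 6 h (43) and 254 to 2474 at 12 h (1852). With an animal left out they were 11 to 330, 5 to 37, 13 to 75 and 1015 to 2686. No paired analysis was possible because each animal number belongs to a single group. Ccn4, Ccn5 and Ccn6 are limited by signals near background, and Ccn1 after corn oil lies close to the filter.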
